A study of Mus musculus with 16 samples.

Results

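The contraction and relaxation of a cardiomyocyte depend on a small set of proteins that move calcium between the cytosol, the sarcoplasmic reticulum (SR) and the outside of the cell. The messages of 10 of these proteins were followed here in the hearts of 16 mice: Atp2a2, Pln, Sln, Ryr2, Trdn, Casq2, Casq1, Jph2, Cacna1c and Slc8a1. They were taken by name from a table of 55573 genes, with earlier results of these data known, and all 10 had a row in it. A total of 9 passed the filter on low counts, while Sln did not.

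The study asked what the long noncoding RNA Cardinal does in a heart under pressure overload when it is overexpressed. Male mice were injected on postnatal day 1 with AAV9, a virus that reaches heart muscle, carrying either GFP or Cardinal behind the cardiac troponin T (cTNT) promoter, which is active in cardiomyocytes, so that every mouse carried a vector. They later underwent transverse aortic constriction (TAC), which narrows the aorta and raises the load on the left ventricle, or a sham operation, and poly(A) RNA of the heart apex was sequenced 4 weeks after surgery. The labels name the vectors AAV9-cTNT-GFP and AAV9-cTNT-CARDINAL, called AAV9-GFP and AAV9-Cardinal here, and give neither strain nor age. With both viruses, 4 sham and 4 TAC mice were sequenced, which gave 4 groups.

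At each beat, calcium enters through the L-type channel of the T-tubule and opens ryanodine receptors in the facing SR membrane, and the calcium released there starts contraction. The SR calcium pump then returns most of it to the store and the sodium-calcium exchanger moves the rest out of the cell. Phospholamban and sarcolipin slow the pump, calsequestrin buffers calcium within the SR, triadin ties calsequestrin to the ryanodine receptor, and junctophilin holds the T-tubule and the SR together. A lower level of the pump is a long known feature of failing heart muscle.

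The sequence just before the transcription start is shown for 4 of the genes, 2 that fell (Pln and Ryr2) and 2 that rose (Casq2 and Casq1) after TAC in AAV9-GFP hearts. RefSeq (GRCm38.p6) gave such a stretch for 7 of the 10 genes and none for Atp2a2, Sln and Trdn. Each stretch is the 250 bases before the RefSeq start, on the strand of the gene: chr10:53337436-53337685, plus strand, for Pln; chr13:12106946-12107195, minus strand, for Ryr2; chr3:102086165-102086414, plus strand, for Casq2; and chr1:172219896-172220145, minus strand, for Casq1. The gene positions given further below are from GENCODE M21, and its starts can differ. That of Pln, 53337667, lies within the stretch shown. Capitals mark matches, on either strand, to TATAAA, to GGGCGG (the GC box), to the MEF2 site or to the CArG box, and no marked match overlapped another.
Pln: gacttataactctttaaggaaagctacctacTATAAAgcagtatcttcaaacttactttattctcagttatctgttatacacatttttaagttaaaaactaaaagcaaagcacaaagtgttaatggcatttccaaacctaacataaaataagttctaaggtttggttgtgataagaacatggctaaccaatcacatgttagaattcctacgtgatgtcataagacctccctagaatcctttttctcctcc
Ryr2: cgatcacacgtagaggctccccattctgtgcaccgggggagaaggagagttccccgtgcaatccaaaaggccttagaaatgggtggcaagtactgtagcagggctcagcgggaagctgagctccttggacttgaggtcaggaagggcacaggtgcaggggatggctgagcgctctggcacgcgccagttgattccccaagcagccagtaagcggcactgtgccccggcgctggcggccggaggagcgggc
Casq2: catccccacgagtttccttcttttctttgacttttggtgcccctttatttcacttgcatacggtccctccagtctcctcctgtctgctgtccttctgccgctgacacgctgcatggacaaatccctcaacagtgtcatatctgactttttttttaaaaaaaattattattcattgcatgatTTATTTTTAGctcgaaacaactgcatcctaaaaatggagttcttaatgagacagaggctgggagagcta
Casq1: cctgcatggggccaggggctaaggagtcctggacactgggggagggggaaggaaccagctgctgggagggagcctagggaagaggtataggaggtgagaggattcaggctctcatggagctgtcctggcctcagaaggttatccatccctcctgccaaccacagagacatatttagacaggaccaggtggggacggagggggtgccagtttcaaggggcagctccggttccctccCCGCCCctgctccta
The match in Casq2, 69 to 60 bases before the start, was a MEF2 site, and 2.92% of all 32851 windows of this length held at least 1. The match in Pln was TATAAA, 219 to 214 bases before the start (12.4% of all windows). The match in Casq1 was a GC box, 15 to 10 bases before the start (32.7% of all windows). The window of Ryr2 held no match, and the CArG box, found in 1.47% of all windows, was in none of the 4. In 1 window of Cacna1c, a gene that also fell and is not shown, there were 6 matches to GGGCGG, and its other windows held no match. Most of these 6 overlap one another, in a repeat from 196 to 175 bases before the start. These are matches of letters and say nothing of whether a factor binds.

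The total count of a mouse lay between 16441997 and 21904589, and AAV9-Cardinal sham replicate 4 was the shallowest. Levels are given as CPM, that is, read counts scaled by the TMM method to the same library size. Cardinal, listed as Gm12295, had 3.42 to 7.24 CPM in the 8 AAV9-GFP mice and 18.3 to 93.9 CPM in the 8 AAV9-Cardinal mice, so the libraries fit their virus labels, and the highest value belonged to AAV9-Cardinal TAC replicate 1. Cardiomyocyte markers such as Myh6 (15330 to 19870 CPM as group means) were abundant in every mouse. Of 3 atrial markers, Myl7 had counts in 1 mouse, AAV9-GFP TAC replicate 1, with 11 counts. Myl4 had counts in 15 mice, with at most 41, and Bmp10 in 3 mice, with at most 4. Of 8 skeletal muscle markers, 5 (Myh1, Myh2, Myh4, Tnnc2 and Actn3) were listed at 0 throughout. The others had few counts, Mylpf in 15 mice (at most 18), Tnni2 in 14 (at most 19) and Tnnt3 in 5 (at most 14). A listed 0 need not mean that no read was present, as given below for Sln. The exons of Ube2c on the opposite strand overlap 74% of the exon bases of Tnnc2. The summed level of 8 cardiomyocyte markers, Myh6 among them, ran from 46340 to 49590 CPM in sham and 37690 to 43810 CPM in TAC hearts with AAV9-GFP. With AAV9-Cardinal, it ran from 45070 to 49050 CPM in sham and 42730 to 49030 CPM in TAC hearts. That of 5 fibroblast markers ran from 418.9 to 471.7, 664.1 to 873.4, 405.7 to 447.1 and 421.6 to 679.2 CPM in the same order. In tissue, fewer cardiomyocytes, less RNA per cardiomyocyte and a change of the marker genes themselves cannot be told apart.

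In AAV9-GFP hearts, TAC changed most of these messages, and not all in the same direction. Atp2a2, Pln, Ryr2, Trdn and Cacna1c fell, Casq1 and Casq2 rose, and Jph2 and Slc8a1 did not pass the test. All tests across genes are edgeR's quasi-likelihood test on 16857 genes with Benjamini-Hochberg adjusted p under 0.05 as the threshold. Thus 7 of the 9 tested members passed, against 17.4% of all tested genes, with 2 of 9 higher (8.49% of all genes) and 5 of 9 lower (8.92% of all genes). For 5 members the 4 TAC mice did not overlap the 4 sham mice, as was the case for 20.3% of all genes. The median log2 fold change of the 9 was -0.28, beside 0.005 over all genes. Beside these changes, 4 of 8 cardiomyocyte markers fell and 3 of 5 fibroblast markers rose in the same comparison, and their part in the changes of the calcium-handling genes was not tested. Mitochondrially encoded genes took 32.8% to 34.0% of the counts in sham and 30.4% to 31.0% in TAC hearts with AAV9-GFP, and 32.2% to 33.7% and 31.0% to 31.9% with AAV9-Cardinal, and with these genes left out of the fit 7 and 4 members passed with the respective virus, as many as with them.

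In AAV9-Cardinal hearts, Casq1 and Casq2 rose and Atp2a2 and Pln fell after TAC. These were 4 of the 9 tested members, against 6.48% of all tested genes, with 2 higher (3.1% of all genes) and 2 lower (3.38% of all genes). Ryr2, Trdn, Cacna1c, Jph2 and Slc8a1 did not pass the test. The TAC and sham mice did not overlap for 5 members, against 13.7% of all genes, and the median log2 fold change was -0.04, beside -0.0005 over all genes. None of the 8 cardiomyocyte markers and 1 of the 5 fibroblast markers passed the test in these hearts.

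When the viruses were compared directly in TAC hearts, no member passed the test, and 0.101% of all tested genes did. Even so, the AAV9-Cardinal mice lay above the AAV9-GFP mice without overlap for Atp2a2, Pln, Ryr2, Cacna1c and Trdn, 5 of the 9 tested members against 6.77% of all genes, and these 5 had an unadjusted p under 0.05 (2528 of 16857 genes did). The log2 fold changes of the 9 ran from 0.04 to 0.31 with a median of 0.24, beside -0.0065 over all genes. DESeq2, run as an alternative, called these 5 higher in AAV9-Cardinal TAC hearts, with adjusted p from 0.0015 to 0.022, and called 3.86% of the 11514 genes that its own filter kept. The call also depended on single mice: without AAV9-Cardinal TAC replicate 1, edgeR called Atp2a2 (adjusted p = 0.025), Cacna1c (0.032) and Trdn (0.034) beside 3.13% of all tested genes, and without AAV9-GFP TAC replicate 1 it called Atp2a2 (0.038) beside 0.335%. The summed cardiomyocyte and fibroblast markers of the 2 TAC groups, given above, also differed in range, with a median log2 fold change of -0.57 over the 5 fibroblast markers, and their part in this difference was not tested. This comparison shares its mice with the TAC comparisons above, each of which holds 1 of the 2 TAC groups.

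In sham hearts, the members were close between the viruses. None passed the test, against 0.0119% of all genes, and none had groups that did not overlap, against 2.36% of all genes. No member had an unadjusted p under 0.05 (437 of 16857 genes did). DESeq2 called none (0.0165% of all genes it kept), and the log2 fold changes ran from -0.22 for Casq1 to 0.04 for Ryr2. The difference in the TAC response between the viruses, tested as an interaction, passed for no member and for 0.0119% of all genes. Its estimates ran from 0.15 to 0.32, with a median of 0.25 beside -0.0007 over all genes. For 5 members the unadjusted p was under 0.05 (1722 of 16857 genes did so). Of the members, DESeq2 called Atp2a2 alone, with an adjusted p of 0.0498, and it called 4.45% of the 3281 genes that its own filter kept for this test. An effect that passed the test with one virus and not with the other is therefore not shown by edgeR to differ between them.

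**Figure D1:**
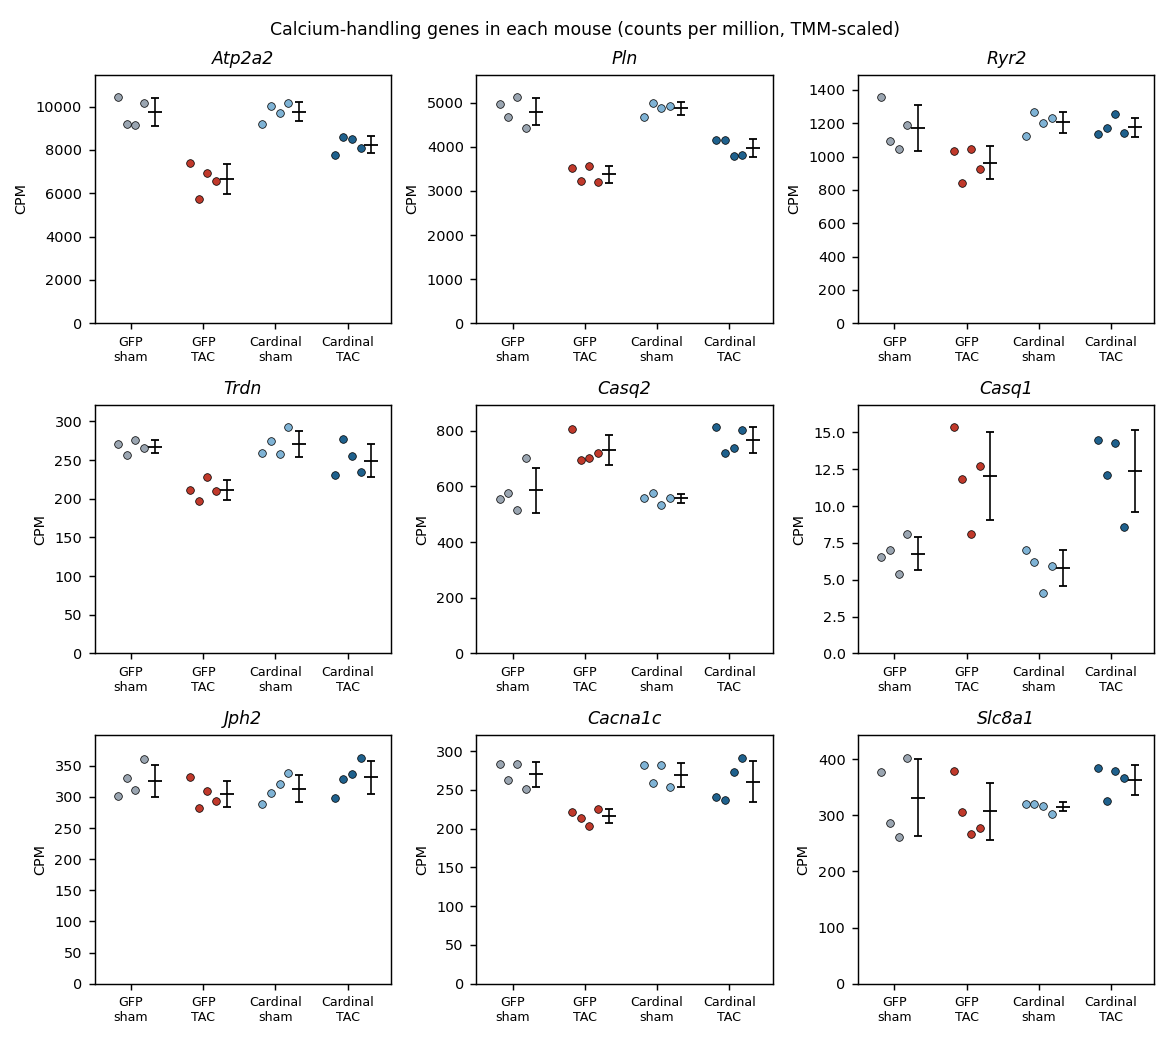
CPM of the 9 tested calcium-handling genes (vertical axes, from 0) in each mouse of the 4 groups (horizontal axes). Each point is 1 mouse, and the bar beside the points is the mean with the SD (n = 4). For Atp2a2, Pln, Ryr2, Trdn and Cacna1c the AAV9-GFP TAC mice sit below the AAV9-Cardinal TAC mice without overlap.

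**Figure D2:**
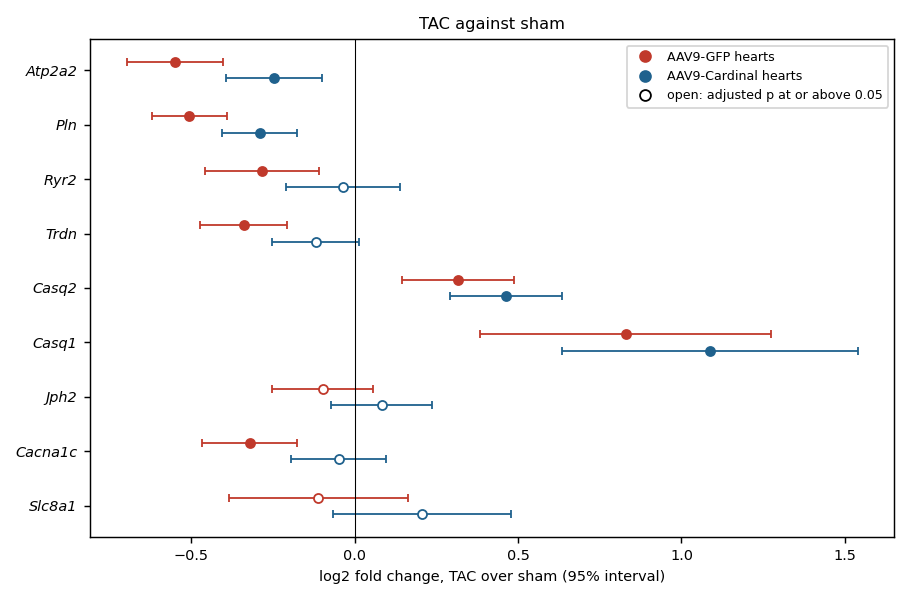
Log2 fold change of TAC over sham (horizontal axis) for the 9 tested genes, with AAV9-GFP (red) and AAV9-Cardinal (blue), with 95% intervals of the edgeR fit as bars. Filled points passed the threshold of 0.05 on the adjusted p. There are 7 filled points for AAV9-GFP and 4 for AAV9-Cardinal.

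The SR calcium pump gene Atp2a2 (ENSMUSG00000029467, chromosome 5 of GRCm38, 122453513 to 122502225, minus strand) was among the most abundant messages of the tissue, with 0.625% to 1.02% of all counts of a mouse. With AAV9-GFP, it was at 10440, 9220, 9169 and 10170 CPM in sham mice and at 7394, 5743, 6930 and 6566 CPM in TAC mice. With AAV9-Cardinal, it was at 9212, 10030, 9689 and 10160 CPM in sham mice and at 7769, 8597, 8510 and 8078 CPM in TAC mice. Every TAC mouse was below every sham mouse, and every AAV9-Cardinal TAC mouse was above every AAV9-GFP TAC mouse.

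The mean level of Atp2a2 thus went from 9750 ± 650.4 to 6658 ± 697.9 CPM (SD, n = 4 each) with AAV9-GFP, and from 9772 ± 422.8 to 8239 ± 386.5 CPM (SD, n = 4 each) with AAV9-Cardinal. After TAC it fell by 0.55 on the log2 scale with AAV9-GFP (SE 0.07, adjusted p = 9.7e-05). It fell by 0.25 with AAV9-Cardinal (SE 0.07, adjusted p = 0.046), but this call was lost when any of 13 of the 16 mice was left out (adjusted p of 0.051 to 0.12) or when no filter on low counts was used (0.077). It held without AAV9-GFP sham replicate 1, AAV9-GFP TAC replicate 1 or AAV9-GFP TAC replicate 3. Between the viruses, the TAC hearts differed by 0.31 (SE 0.07, 95% interval 0.16 to 0.45, adjusted p = 0.076) and the sham hearts by 0.0033 (95% interval -0.14 to 0.15). The interaction was 0.30 (SE 0.10, unadjusted p = 0.0069, adjusted p = 0.33).

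Phospholamban, which slows the pump until it is phosphorylated, is encoded by Pln (ENSMUSG00000038583, chromosome 10, 53337667 to 53345987, plus strand). With AAV9-GFP, Pln was at 4971, 4670, 5127 and 4433 CPM in sham mice and at 3527, 3221, 3571 and 3212 CPM in TAC mice. In AAV9-Cardinal mice, it was at 4677, 4998, 4882 and 4927 CPM in sham mice and at 4155, 4164, 3803 and 3813 CPM in TAC mice. The groups stood apart in the same order as for Atp2a2, with no overlap between TAC and sham or between the viruses after TAC.

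Pln fell after TAC by 0.51 on the log2 scale with AAV9-GFP (SE 0.05, adjusted p = 3.5e-05) and by 0.29 with AAV9-Cardinal (SE 0.05, adjusted p = 0.0068). Both calls held whichever mouse was left out. The viruses differed by 0.24 in TAC hearts (SE 0.05, adjusted p = 0.078) and by 0.02 in sham hearts (95% interval -0.09 to 0.14). The antisense gene Gm47644 overlaps 59.6% of the exon bases of Pln, and the sources used here do not say if the counting was stranded. Gm47644 itself had group means of 33.3 and 20.8 CPM in sham and TAC hearts with AAV9-GFP and of 35.5 and 26.0 CPM with AAV9-Cardinal, far below Pln, and reads of the 2 genes cannot be told apart there without strand.

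Sarcolipin, the regulator of the pump best known from atria and skeletal muscle, is encoded by Sln (ENSMUSG00000042045, chromosome 9, 53850164 to 53854560, plus strand). Sln was listed at 0 in 15 mice and at 4 counts (0.171 CPM) in AAV9-GFP TAC replicate 1, the mouse that also had the Myl7 counts. The atrial marker Myl4 had counts in 15 mice, as given above. The ratio of Sln to Atp2a2 could therefore not be computed. A count of 0 allows up to 3 counts, or 0.126 to 0.195 CPM in a library of these depths. Zeros in this table were more frequent than low counts: among 1814 genes with a median of 15 to 30 counts over the mice, 285 values were 0 and 43 were between 1 and 3, so a 0 in it need not mean that no read was present.

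The other pumps of the family were low. Atp2a3, the pump of nonmuscle cells and vessels, had 1.80 ± 0.14 CPM per kilobase of exon in AAV9-GFP sham hearts (SD, n = 4), where Atp2a2 had 1603 ± 107 CPM per kilobase. Atp2a1, the pump of fast skeletal muscle, had at most 17 counts in any mouse and 0 in all AAV9-GFP TAC mice. Atp2a3 fell after TAC by 0.24 on the log2 scale with AAV9-GFP (adjusted p = 0.036) and by 0.31 with AAV9-Cardinal (adjusted p = 0.027).

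The genes of calcium release did not move together. Ryr2 (ENSMUSG00000021313, chromosome 13, 11553102 to 12106945, minus strand), which encodes the cardiac ryanodine receptor, was at 1356, 1091, 1044 and 1190 CPM in AAV9-GFP sham mice and at 1036, 838.4, 1047 and 927.5 CPM in AAV9-GFP TAC mice. After AAV9-Cardinal, its level was 1124, 1267, 1198 and 1229 CPM in sham mice and 1133, 1168, 1255 and 1144 CPM in TAC mice. The AAV9-GFP TAC group was the lowest and touched the AAV9-GFP sham group, and the AAV9-Cardinal TAC mice lay within the range of their sham mice.

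In AAV9-GFP hearts, Ryr2 fell after TAC by 0.28 on the log2 scale (SE 0.08, adjusted p = 0.026). This call was lost without AAV9-GFP sham replicate 1 (adjusted p = 0.087), AAV9-GFP sham replicate 4 (0.055), AAV9-GFP TAC replicate 3 (0.094) or AAV9-GFP TAC replicate 7 (0.073), and also when the other 8 mice were left out of the fit (0.088). It was lost too with replicate number as a block (0.076), and with a GC offset added to the block (0.082). The limits of that block are given below. With AAV9-Cardinal the log2 fold change was -0.04 (95% interval -0.21 to 0.14, adjusted p = 0.87). The viruses differed by 0.29 in TAC hearts (SE 0.08, adjusted p = 0.12). The skeletal and brain receptors Ryr1 and Ryr3 had at most 12 and 32 counts in any mouse.

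Triadin, the SR membrane protein that links the receptor to calsequestrin, is encoded by Trdn (ENSMUSG00000019787, chromosome 10, 33080554 to 33476709, plus strand). With AAV9-GFP, Trdn was at 270.3, 256.9, 276.1 and 266.1 CPM in sham mice and at 211.1, 196.7, 227.5 and 209.8 CPM in TAC mice. With AAV9-Cardinal, it was at 259.1, 274.1, 257.4 and 292.2 CPM in sham mice and at 231.2, 276.7, 254.8 and 234.2 CPM in TAC mice. The AAV9-GFP TAC mice were below all other mice, while the AAV9-Cardinal TAC and sham mice overlapped. Trdn fell by 0.34 on the log2 scale with AAV9-GFP (SE 0.06, adjusted p = 0.0017), and its log2 fold change with AAV9-Cardinal was -0.12 (95% interval -0.25 to 0.01, adjusted p = 0.28). The viruses differed by 0.24 in TAC hearts (SE 0.06, adjusted p = 0.10).

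Calsequestrin binds calcium within the SR lumen, near the release channel. Casq2 (ENSMUSG00000027861, chromosome 3, 102086415 to 102146514, plus strand), the cardiac form, was at 553.9, 574.8, 514.9 and 701.7 CPM in AAV9-GFP sham mice and at 807.5, 692.8, 700 and 719.9 CPM in AAV9-GFP TAC mice. In AAV9-Cardinal mice, it was at 556.4, 576.8, 534.5 and 559.1 CPM in sham mice and at 811.8, 719.2, 736 and 802.2 CPM in TAC mice. AAV9-GFP sham replicate 4 reached into the TAC range, and the AAV9-Cardinal groups did not overlap. Casq2 rose by 0.32 on the log2 scale with AAV9-GFP (SE 0.08, adjusted p = 0.013) and by 0.46 with AAV9-Cardinal (SE 0.08, adjusted p = 0.0053). The call in AAV9-GFP hearts was lost when only those 8 mice were fitted (adjusted p = 0.059). With replicate number as a block, whose limits are given below, it was also lost (0.054), as was that in AAV9-Cardinal hearts (0.15).

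Casq1 (ENSMUSG00000007122, chromosome 1, 172209894 to 172219868, minus strand) is the calsequestrin of fast skeletal muscle. Here it was scarce, with 86 to 358 counts per mouse. It was at 6.53, 7.01, 5.39 and 8.11 CPM in AAV9-GFP sham mice and at 15.3, 11.8, 8.14 and 12.7 CPM in AAV9-GFP TAC mice. After AAV9-Cardinal, its level was 7.05, 6.18, 4.13 and 5.90 CPM in sham mice and 14.5, 12.1, 14.3 and 8.56 CPM in TAC mice. TAC and sham mice did not overlap with either virus, although AAV9-GFP TAC replicate 4 exceeded the highest sham mouse only narrowly.

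Casq1 had the largest fold change of the 9 tested members, and rose by 0.83 on the log2 scale with AAV9-GFP (SE 0.21, 1.78-fold, adjusted p = 0.013) and by 1.09 with AAV9-Cardinal (SE 0.21, 2.12-fold, adjusted p = 0.0092). Between the viruses it differed by 0.04 in TAC hearts (95% interval -0.38 to 0.47), and the sign of that value turned without AAV9-GFP TAC replicate 4 (-0.10), AAV9-Cardinal TAC replicate 1 (-0.04) or AAV9-Cardinal TAC replicate 5 (-0.03). The summed level of the 8 skeletal muscle markers ran from 0.343 to 1.06 CPM in sham and 1.09 to 1.59 CPM in TAC hearts with AAV9-GFP. With AAV9-Cardinal, it ran from 0.949 to 1.67 and 0.398 to 0.987 CPM. Of these markers, Myh1, Myh2, Myh4, Tnnc2 and Actn3 were listed at 0, and Mylpf, Tnni2 and Tnnt3 had at most 18, 19 and 14 counts in any mouse. The part of the skeletal muscle markers in the rise of Casq1 was not tested. The antisense gene Gm17224 overlaps 8.0% of the exon bases of Casq1 and had at most 7 counts in any mouse.

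The pore of the L-type calcium channel is encoded by Cacna1c (ENSMUSG00000051331, chromosome 6, 118587240 to 119196418, minus strand). With AAV9-GFP, Cacna1c was at 282.9, 262.5, 283.2 and 250.9 CPM in sham mice and at 221.5, 213.8, 203.7 and 224.9 CPM in TAC mice. With AAV9-Cardinal, it was at 282, 259.2, 282.3 and 253.6 CPM in sham mice and at 240.4, 236.3, 273.5 and 291.6 CPM in TAC mice. The AAV9-GFP TAC mice were below all other mice, and the AAV9-Cardinal TAC mice spanned the sham range.

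With AAV9-GFP, Cacna1c fell after TAC by 0.32 on the log2 scale (SE 0.07, adjusted p = 0.0046), a call kept whichever mouse was left out. With AAV9-Cardinal the change was -0.05 (95% interval -0.19 to 0.10, adjusted p = 0.76). The viruses differed by 0.27 in TAC hearts (SE 0.07, adjusted p = 0.097) and by -0.0031 in sham hearts (95% interval -0.15 to 0.14). The related pore gene Cacna1d, typical of pacemaker cells, had at most 49 counts in any mouse.

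Jph2 (ENSMUSG00000017817, chromosome 2, 163336242 to 163397993, minus strand), which encodes the cardiac junctophilin, did not pass a test in any comparison. Its levels ran from 302.1 to 360.3 CPM in sham and 282.5 to 332.4 CPM in TAC mice with AAV9-GFP, and from 288.9 to 338.7 CPM in sham and 298.8 to 363.3 CPM in TAC mice with AAV9-Cardinal, so that all 4 groups overlapped. The log2 fold change after TAC was -0.10 with AAV9-GFP (95% interval -0.25 to 0.06) and 0.08 with AAV9-Cardinal (95% interval -0.07 to 0.24).

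The sodium-calcium exchanger gene Slc8a1 (ENSMUSG00000054640, chromosome 17, 81373105 to 81738377, minus strand) did not pass either. It was at 376.7, 285.5, 260.7 and 402.9 CPM in AAV9-GFP sham mice and at 378.5, 306.2, 266.1 and 277.4 CPM in AAV9-GFP TAC mice. In AAV9-Cardinal mice, it was at 319.7, 320.1, 317.4 and 302.9 CPM in sham mice and at 383.4, 325.2, 379.3 and 366.7 CPM in TAC mice. The AAV9-GFP groups were wide, with coefficients of variation of 20.8% (sham) and 16.5% (TAC), whereas the AAV9-Cardinal groups were narrow and did not overlap. Its log2 fold change after TAC was -0.11 with AAV9-GFP (95% interval -0.38 to 0.16, adjusted p = 0.63) and 0.21 with AAV9-Cardinal (95% interval -0.07 to 0.48, adjusted p = 0.38).

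**Figure D3:**
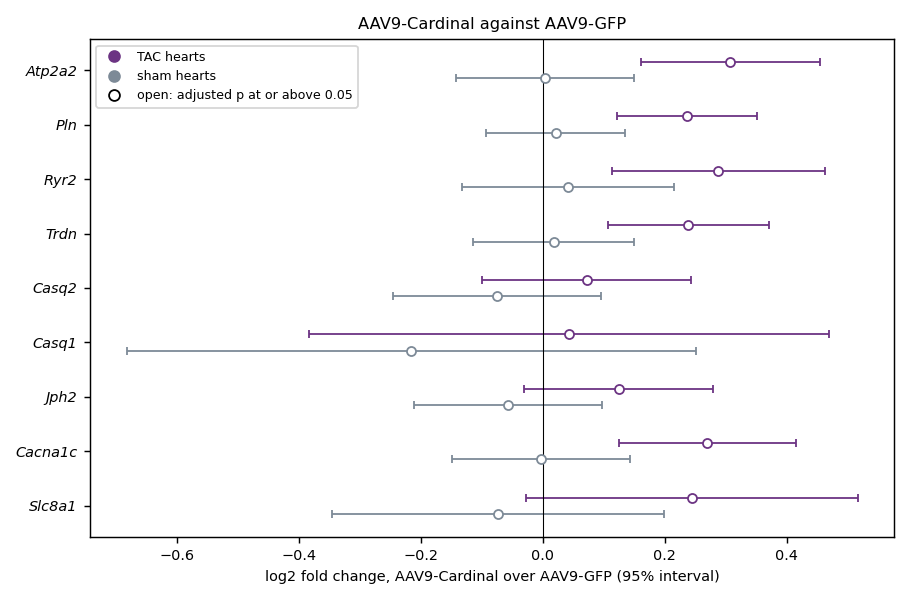
Log2 fold change of AAV9-Cardinal over AAV9-GFP (horizontal axis) for the 9 tested genes in TAC hearts (purple) and sham hearts (gray), with 95% intervals of the edgeR fit as bars. All points are open, since none passed the threshold. The intervals of Atp2a2, Pln, Ryr2, Trdn and Cacna1c in TAC hearts lie above 0 without adjustment for the number of genes.

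The levels of the members were compared per kilobase of exon, since longer messages collect more reads. In AAV9-GFP sham hearts the means were 1740 CPM per kilobase for Pln, 1603 for Atp2a2, 214.3 for Casq2, 76.6 for Jph2, 40.65 for Ryr2, 28.6 for Trdn, 17.6 for Slc8a1, 12.7 for Cacna1c and 3.465 for Casq1. This order of the means was the same in all 4 groups. Pln and Atp2a2 overlapped in 3 groups and stood apart in AAV9-Cardinal sham hearts, with 1695 to 1811 against 1515 to 1671 CPM per kilobase, while every other pair of neighbors in the order had separate ranges in every group. The length used was the union of all annotated exons, for instance 28790 bases over 14 transcripts for Ryr2 and 21191 over 27 for Cacna1c. The messages present in the heart may be shorter, so the order and the gaps between genes depend on this choice of length. The level of Pln also carries the uncertainty of the overlapping Gm47644.

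**Figure D4:**
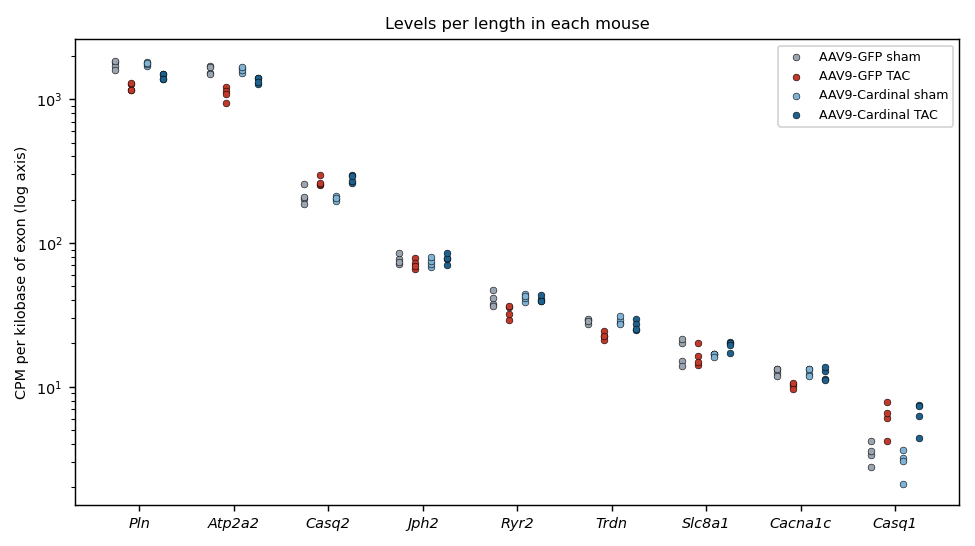
CPM per kilobase of exon (vertical log axis) of the 9 tested genes, ordered by level, with 1 point per mouse and 1 color per group. Levels span from 3.465 (Casq1) to 1740 (Pln) as means of AAV9-GFP sham hearts, and the shifts between groups are small beside the distance between most genes. Sln is left out because 15 mice were listed at 0.

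Ratios between members were compared within each mouse, because a ratio does not depend on the depth of the library. The ratio of Pln to Atp2a2 counts was 0.495 ± 0.052 in sham and 0.511 ± 0.037 in TAC hearts with AAV9-GFP, and 0.499 ± 0.010 in sham and 0.485 ± 0.037 in TAC hearts with AAV9-Cardinal (SD, n = 4 each). The groups overlapped, so the fall of the pump and of its inhibitor left their ratio within the spread between mice (exact two-sided permutation p = 0.54 for TAC with AAV9-GFP and 0.46 with AAV9-Cardinal). The log2 differences were 0.05 and -0.04.

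The ratio of Slc8a1 to Atp2a2 counts was 0.0338 ± 0.0050 and 0.0463 ± 0.0071 in sham and TAC hearts with AAV9-GFP, and 0.0323 ± 0.0020 and 0.0443 ± 0.0048 with AAV9-Cardinal (SD, n = 4 each). It was 1.37-fold higher after TAC with either virus (exact two-sided permutation p = 0.057 with AAV9-GFP and 0.029 with AAV9-Cardinal), and the AAV9-Cardinal groups did not overlap. The ratio of Casq1 to Casq2 was 1.40-fold and 1.54-fold higher after TAC (exact permutation p = 0.086 with either virus), with overlap in both. That of Ryr2 to Cacna1c differed by less than the spread between mice in all 4 comparisons (fold 1.011 to 1.035, exact permutation p of 0.69 to 0.91). With 4 mice against 4 the smallest exact p is 0.029. After Benjamini-Hochberg adjustment over the 16 ratio tests, no ratio passed (lowest adjusted exact p = 0.34). A single ratio at the smallest exact p could not have passed alone, so the adjusted result does not decide whether a ratio changed.

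**Figure D5:**
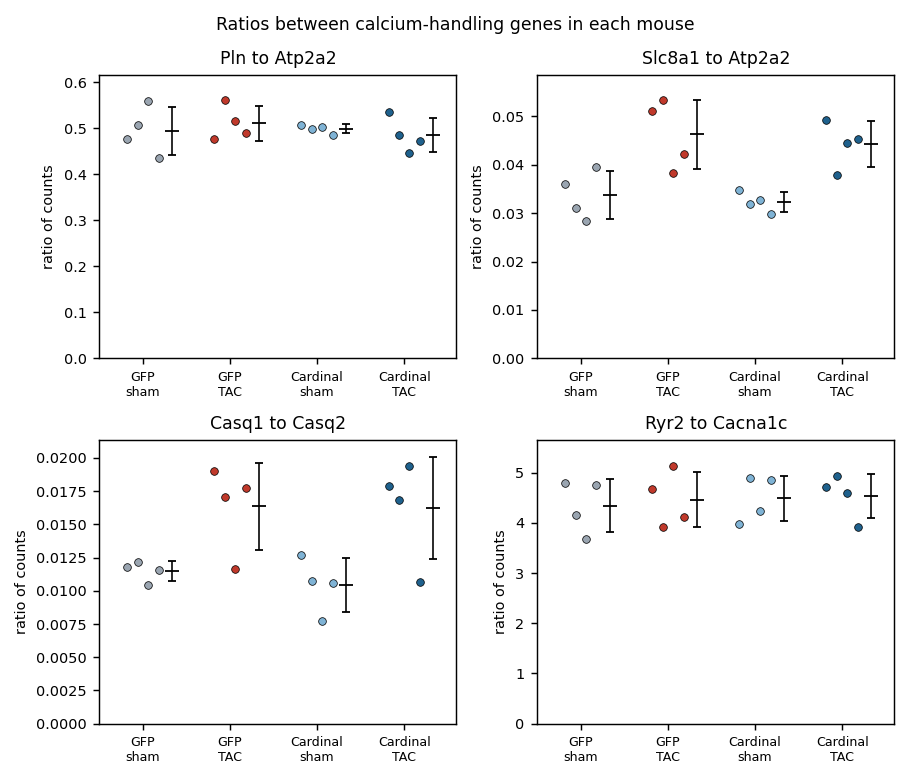
Ratio of counts (vertical axes, from 0) of Pln to Atp2a2, Slc8a1 to Atp2a2, Casq1 to Casq2 and Ryr2 to Cacna1c in each mouse of the 4 groups (horizontal axes). Points are mice and bars are the mean with the SD (n = 4). The Pln to Atp2a2 and Ryr2 to Cacna1c ratios overlap in all groups, and Slc8a1 to Atp2a2 lies higher in TAC than in sham mice with AAV9-Cardinal.

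Within the groups, the members varied together to different degrees. After each group's mean was taken off, the Pearson correlation of log2 CPM over the 16 mice ran from -0.40 (Cacna1c with Trdn) to 0.89 (Atp2a2 with Ryr2), with 0.73 for Casq2 with Slc8a1, 0.60 for Atp2a2 with Trdn and 0.30 for Atp2a2 with Pln. These values are descriptions, and both genes of a pair come from the same libraries. Over all 16 mice, the 5 tested genes most like Atp2a2 were Gm30970 (Pearson r = 0.98), Mut (0.97), Mccc1 (0.96), Slc6a17 (0.96) and Hrc (0.96). Gm30970 shares stretches of 50 bases with Atp2a2 in the annotated transcripts, so reads of the 2 genes may not be fully separated. Those most like Casq1 were Kdelc1 (0.88), Tmem53 (0.87), Lpp (0.87), Casq2 (0.87) and 1700025G04Rik (0.87). These values hold the differences between the groups, and within the groups r was 0.72 to 0.86 for the genes named beside Atp2a2 and 0.39 to 0.60 for those named beside Casq1.

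Beyond the 10 members, 96 further genes of calcium handling were listed in 8 groups, and 88 of them passed the filter on low counts. After TAC in AAV9-GFP hearts, 14 rose and 17 fell, or 35.2%, beside the 17.4% of all genes given above. In AAV9-Cardinal hearts, 7 rose and 6 fell, or 14.8%, beside 6.48%. None passed the test between the viruses in TAC or sham hearts or in the interaction. Their median log2 fold change was 0.0086 with AAV9-GFP and -0.03 with AAV9-Cardinal.

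Among regulators of the pump, 4 of 9 tested genes fell and none rose after TAC in AAV9-GFP hearts, where 8.92% of all genes fell and 8.49% rose. Strit1, which encodes DWORF, a small protein that relieves the pump of phospholamban, fell by 1.13 on the log2 scale (SE 0.17, adjusted p = 0.00036). Hrc, a calcium-binding protein of the SR lumen, fell by 0.60 (SE 0.07, adjusted p = 4.7e-05), and Akap7, an anchor of protein kinase A at phospholamban, fell by 0.42 (SE 0.07, adjusted p = 0.00058). In AAV9-Cardinal hearts Akap7 fell by 0.37 (adjusted p = 0.0056) and Atp2a3 fell, as given above, while Srl, which encodes the SR protein sarcalumenin, rose by 0.40 (SE 0.08, adjusted p = 0.011).

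Of 13 tested genes around the ryanodine receptor, 1 rose and 2 fell with AAV9-GFP, where 8.49% of all genes rose and 8.92% fell. Akap6 fell by 0.33 (adjusted p = 0.0089), Tmem38a, an SR potassium channel, fell by 0.24 (adjusted p = 0.0084) and Fkbp1a rose by 0.18 (adjusted p = 0.037). With AAV9-Cardinal, where 6.48% of all genes passed, Sri, which encodes sorcin, rose by 0.28 (adjusted p = 0.026). Asph, whose transcripts include junctin, rose by 0.21 in these hearts (adjusted p = 0.039). Counts per gene cannot separate junctin from the other products of Asph, and the exons of Clvs1 on the opposite strand overlap 14.3% of its exon bases.

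Of 16 tested genes for channel subunits and the dyad, 4 rose and 3 fell with AAV9-GFP (17.4% of all genes passed). In AAV9-Cardinal hearts, 1 rose and 3 fell (6.48% of all genes passed). Cacna1s, the pore of the skeletal L-type channel, fell by 0.82 (SE 0.12, adjusted p = 0.00039) with AAV9-GFP and by 0.47 (SE 0.12, adjusted p = 0.034) with AAV9-Cardinal. Gm37759 on the opposite strand overlaps 19.98% of the exon bases of Cacna1s. The beta subunit gene Cacnb2 fell by 0.75 (adjusted p = 0.0038) and 0.69 (adjusted p = 0.018), and Cacnb1 rose by 0.73 with AAV9-GFP (SE 0.13, adjusted p = 0.0016). Jph1, the junctophilin of skeletal muscle, fell by 0.38 with AAV9-Cardinal (adjusted p = 0.044).

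Of 8 tested genes for calcium and sodium extrusion, 2 rose and 1 fell with AAV9-GFP, where 8.49% of all genes rose and 8.92% fell. Atp2b4 rose by 0.24 (adjusted p = 0.038) and Atp1b1 by 0.22 (adjusted p = 0.021). The exons of Nme7 on the opposite strand overlap 18.7% of the exon bases of Atp1b1. With AAV9-Cardinal, Slc8a2, another sodium-calcium exchanger, rose by 1.01 (SE 0.28, adjusted p = 0.047) from a level of 7 to 18 counts per sham mouse. Orai3, of store-operated entry, fell by 0.29 (adjusted p = 0.025) and 0.32 (adjusted p = 0.034) with the 2 viruses, as the only one of 9 tested genes in that list. Of all genes, 17.4% passed with AAV9-GFP and 6.48% with AAV9-Cardinal.

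Of 14 kinases, phosphatases and phosphodiesterases, 2 rose and 5 fell with AAV9-GFP (17.4% of all genes passed). Among them, Pde4d fell by 0.70 (adjusted p = 0.016), Camk2a by 0.69 (SE 0.11, adjusted p = 0.00083) and Pde3a by 0.34 (adjusted p = 0.021). With AAV9-Cardinal, Ppp1cc rose by 0.21 (adjusted p = 0.010) and no other passed (6.48% of all genes did). None of 9 genes of mitochondrial calcium transport passed with either virus, beside these shares of all genes. Of 10 tested calcium-binding proteins of the SR lumen and cytosol, 5 rose and 1 fell with AAV9-GFP, where 8.49% of all genes rose and 8.92% fell. The largest rises were those of S100a4 (0.78, adjusted p = 0.032), S100a6 (0.70, adjusted p = 0.0061) and S100a11 (0.64, adjusted p = 0.0024). S100a11 also rose by 0.53 with AAV9-Cardinal (adjusted p = 0.023), where 6.48% of all genes passed. Gm42674 on the same strand overlaps 51.7% of the exon bases of S100a4. Fibroblasts also express these S100 genes, the fibroblast markers moved in the same comparison as given above, and their part in it was not tested.

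Of the 31 calls named here for these further genes, 15 held whichever of the 16 mice was left out. With AAV9-GFP, those of Strit1, Hrc, Akap7, Akap6, Tmem38a, Cacna1s, Cacnb1, Cacnb2, Camk2a, Pde4d, S100a6 and S100a11 held, and with AAV9-Cardinal those of Akap7, Srl and Ppp1cc. The other 16 were lost without at least 1 mouse. With AAV9-GFP, the calls of Fkbp1a (lost without any of 6 mice, adjusted p up to 0.13), Atp2a3 (5 mice, up to 0.11), Atp2b4 (5 mice, up to 0.10), S100a4 (5 mice, up to 0.083), Pde3a (5 mice, up to 0.077), Orai3 (4 mice, up to 0.071) and Atp1b1 (2 mice, up to 0.065) were lost. With AAV9-Cardinal, those of Slc8a2 (11 mice, up to 0.12), Jph1 (8 mice, up to 0.13), Asph (7 mice, up to 0.13), Atp2a3 (6 mice, up to 0.093), Cacna1s (6 mice, up to 0.079), Orai3 (5 mice, up to 0.11), Sri (5 mice, up to 0.081), S100a11 (4 mice, up to 0.066) and Cacnb2 (2 mice, up to 0.063) were lost.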

How the data were processed

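RNA-Seq of the heart apex was made from 16 mice in 4 groups of 4, as single-end reads of 50 bases. The deposited table held read counts as whole numbers, not normalized, with 1 row for each Ensembl gene and 1 column for each mouse. The submitters' processing notes list FastQC, HISAT2 2.1.0, edgeR 3.26.1 and GRCm38. The counting program, the annotation and the use of strand are not given in the sources used here. Genes were named and located with GENCODE M21 (55480 of 55573 matched).

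Counts were analyzed with R 4.3.3, edgeR 4.0.16 and limma 3.58.1 as the deposited whole numbers: TMM scaling, edgeR's filter on low counts (16857 genes kept), and a single quasi-likelihood fit of all 16 mice with each comparison as a contrast, with p adjusted over all tested genes by the Benjamini-Hochberg method. The common coefficient of variation was 0.128. CPM per kilobase used the union of a gene's exons. Ratios were compared with exact two-sided permutation tests (scipy 1.17.1, 70 labelings). Mice of the same group differed by more than sampling noise (chi-square per degree of freedom 5.32 to 16.0), so all were kept. The labels do not name litters or batches. The method was tested on simulated data.

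All 10 members are named, and of each further list up to 3 genes per comparison with the largest change among those past the threshold, plus named paralogs with their level. A further gene of these lists is not reported here. The members and lists were chosen with earlier results of these data known. Floors cover counting error only. Alternatives were DESeq2 1.42.0, RLE size factors, other filters, a robust fit, fits without mitochondrially encoded genes or of only the mice compared, a GC offset, replicate number as a block, and each mouse left out.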

Additional observations from a re-analysis of the deposited data

Results flagged for a closer look

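In 41 groups of 4 mice (each member in each group with counts, and the library totals), 3 held a mouse far from the other 3, where chance flags about 1 group in 20. Sln was at 0.171 CPM (4 counts) in AAV9-GFP TAC replicate 1 and at 0 in the other 3 mice of that group. Slc8a1 was at 302.9 CPM in AAV9-Cardinal sham replicate 4, below the other 3 mice at 317.4 to 320.1 CPM. The same mouse had the lowest total, 16441997 counts, with 21603910 to 21786630 in the other 3 mice of its group.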

How the results depend on the processing

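For the members, 413 of 440 log2 fold changes under other settings and 682 of 720 with 1 mouse left out kept their direction and their side of the threshold. No member was called between the viruses or in the interaction, so keeping that side says little there. Of the calls for TAC, that of Atp2a2 with AAV9-Cardinal held in 3 of 16 fits with a mouse left out. That of Ryr2 with AAV9-GFP held in 12, and the other calls of members held in all 16. The 31 named calls of the other calcium genes kept their direction throughout, and 10 were lost with no filter on low counts, 11 when only the mice compared were fitted, 19 with the replicate block, 1 with DESeq2 and 1 with the GC offset.

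The number of genes called varied more, and the cause was not tested. For TAC with AAV9-GFP, leaving out a mouse gave 1962 to 3072 genes and 6 to 7 members. For TAC with AAV9-Cardinal, there were 615 genes with no filter on low counts and 384 to 1436 with a mouse left out. Between the viruses in TAC hearts, there were 444 with DESeq2 (5 members), 3 with no filter, 35 with at least 1 CPM in 4 mice, 30 without mitochondrially encoded genes, 3 with only the mice compared, and 0 to 535 (0 to 3 members) with a mouse left out, the most without AAV9-Cardinal TAC replicate 1. In sham hearts there were 5 with DESeq2 and 1 to 3 with a mouse left out. For the interaction there were 146 with DESeq2 (1 member) and 2 to 79 with a mouse left out, again the most without AAV9-Cardinal TAC replicate 1.

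Replicate numbers 1 and 4 occur in all 4 groups and the others in fewer. The deviations of same-numbered mice from their group means had r of -0.04 to 0.21. All pairs of replicate 1 mice were above 0 (0.067 to 0.21), while pairs of the other numbers ran from -0.04 to 0.09. Pairs of unlike number are not given here as a reference. The labels name no litters or batches, so the numbers were not taken as pairs. With the replicate block, 2091 genes and 5 members were called for TAC with AAV9-GFP, 31 genes and 0 members for TAC with AAV9-Cardinal, 0 genes between the viruses in TAC hearts, 1 in sham hearts and 1 for the interaction, and with the GC offset added to the replicate block 32 genes and 0 members, 0, 1 and 1 for the last 4 of these comparisons. Numbers 5 and 6 occur only in AAV9-Cardinal TAC mice and number 7 only in an AAV9-GFP TAC mouse, so the block fits these mice exactly. They then add nothing to a comparison, and the fits with the block rest on fewer mice. The part of this in the lower counts was not tested. The replicate block gave Jph2 log2 fold changes of -0.026 for TAC with AAV9-Cardinal and -0.0009 between the viruses in TAC hearts. With the GC offset added, Casq2 was at -0.012 between the viruses in TAC hearts, and Cacna1c (0.0009) and Trdn (-0.0009) turned in sham hearts.

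Values near 0 changed sign when a mouse was left out. Between the viruses in TAC hearts, Casq1 ran from -0.10 to 0.19. In sham hearts, Atp2a2 ran from -0.025 to 0.038 (-0.0027 with no filter), Pln from -0.015 to 0.054, Ryr2 from -0.0097 to 0.12, Casq2 from -0.13 to 0.023, Cacna1c from -0.036 to 0.025 (0.0010 with the GC offset), Slc8a1 from -0.17 to 0.034 and Trdn from -0.021 to 0.041. Among log2 ratios, Pln to Atp2a2 ran from -0.0093 to 0.11 for TAC with AAV9-GFP and -0.041 to 0.079 in sham hearts, and Slc8a1 to Atp2a2 from -0.14 to 0.016 in TAC and -0.13 to 0.026 in sham hearts between the viruses. Casq1 to Casq2 ran from -0.18 to 0.17 between the viruses in TAC hearts. Ryr2 to Cacna1c ran from -0.037 to 0.099 for TAC with AAV9-GFP, -0.039 to 0.085 with AAV9-Cardinal, and -0.033 to 0.098 in TAC and -0.026 to 0.11 in sham hearts between the viruses. With a mouse left out, 4 against 3 mice cannot reach an exact p below 0.057.

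Depth limits Sln, at 0 to 4 counts per mouse, and the paralogs with few counts. Gene counts do not separate isoforms.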
